A study of Homo sapiens with 10 samples.

Results

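The exons described here are cassette exons of 61 to 200 bp whose length is a multiple of 3, so that the reading frame of the transcript is the same with the exon as without it. They were taken as the distinct middle exons of all events in the 8 splicing tables, by their length alone, and 831 of the 2969 distinct exons in the tables (28%) met the rule. The remaining exons comprised 1145 frame-changing exons of the same length range, 339 exons up to 60 bp and 654 exons over 200 bp. All 831 exons are accounted for below, and none was removed by a filter on low values. An exon is in a table because its inclusion differed between the libraries of that table, so the changes of listed exons are given as a description, with no test.

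The data were RNA-seq of C33A cells, an established human cervical carcinoma line described by the study as deficient in both SWI/SNF ATPases, 48 h after transient transfection with a lipid reagent. The 10 libraries comprised 5 groups of 2 replicates: the empty vector pOPRSVI (control), BRG1-wt (wild-type BRG1), BRG1-mut (ATPase-deficient BRG1), BRM-wt (wild-type BRM) and BRM-mut (ATPase-deficient BRM). All cells were of the same line and all received a plasmid, so the control cells differed from the others in the plasmid and in the protein that it encodes. Each of the 8 tables compared 1 ATPase library with the control that carries its replicate number, and the 4 groups therefore share the same 2 control libraries. The ATPases were expressed from plasmids and not from their own loci, and in bulk RNA of a transiently transfected culture, fewer expressing cells and less RNA per cell cannot be told apart.

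SWI/SNF complexes use the energy of ATP to move or remove nucleosomes, and each complex holds either BRG1 or BRM as its motor subunit. Splicing occurs largely while the gene is being transcribed, and a cassette exon is either joined into the mRNA or left out together with the introns on both sides of it. When such an exon lies in coding sequence and keeps the frame, inclusion and skipping give 2 protein forms that differ by an internal stretch of residues. When it changes the frame, one of the forms often meets an early stop codon and is degraded by nonsense-mediated decay. Frame-preserving exons are therefore the class in which a change of inclusion most directly alters the protein, and many of them encode flexible segments, binding motifs or repeats.

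The measure of inclusion is PSI, the fraction of transcripts of an event that hold the middle exon, from 0 for an exon that is always skipped to 1 for one that is always included. MISO, the program that the authors used, lists an event when its Bayes factor, the weight of evidence for a difference between 2 libraries, is above 10. A change is given as the PSI in the ATPase library less that in the control library of the same number, and exons with a higher PSI are called included and those with a lower PSI skipped. Reads per event are not in the tables and the depth of a PSI value is unknown, and the only measure of error is the spread between the 2 replicates. With 2 libraries against 2, an exact permutation test cannot give a two-sided p below 0.333. The labels do not say whether replicates were separate cultures.

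The libraries showed the following before any exon was considered. The base mean of SMARCA4, the gene of BRG1 (a level over 4 libraries, 2 of them controls), was 25802 with BRG1-wt and 29824 with BRG1-mut against 3864 and 3076 with BRM-wt and BRM-mut. That of SMARCA2, the gene of BRM, was 59658 and 75591 in the BRM tables against 12.6 and 9.33 in the BRG1 tables. The epithelial keratin genes KRT8 and KRT18 had base means of 90.8 to 696 and EPCAM of 22.6 to 30.2, while the adhesion gene CDH1 was at 3.05 to 6.27, near the level of the liver gene ALB (6.13 to 9.29). COL1A1, a gene of fibroblasts, was at 19.1 to 36.5, whereas PTPRC, a defining gene of leukocytes, was at 1529 to 1851 in the 4 tables. The part of other cell types in the results was not tested. Control replicate 1 and BRM-wt replicate 2 had like PSI values in the exons listed in both BRM-wt tables, and so had control replicate 2 and BRM-wt replicate 1, and BRM-wt results are therefore given by replicate, except where counts join both replicates. Whether libraries or table columns were exchanged, between replicate numbers or between control and BRM-wt within a number, was not tested. An exchange would change what the PSI values of BRM-wt and of the controls stand for. Through the shared controls it could also touch the changes of the other ATPase groups.

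The sequences of the coding exons on which the results turn are shown here, from GRCh37 and in the direction of transcription. Capitals mark the exon and lower case the 10 intron bases on each side, with the AG of the upstream intron and the GT of the downstream intron next to the capitals. They were chosen by rank of their change in a group or by their gene, and those of TCP1 and ANKRD12 were added after their values were seen. Exon numbers are those of the annotated transcript with the longest coding sequence that holds the exon.

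Among exons listed in both replicates, the most included one of both BRG1 groups was exon 27 of SMARCA4 (chr19:11144443-11144541, plus strand), 99 bp long with a GC content of 67.7%, which encodes 33 residues of BRG1 itself.
SMARCA4 exon 27: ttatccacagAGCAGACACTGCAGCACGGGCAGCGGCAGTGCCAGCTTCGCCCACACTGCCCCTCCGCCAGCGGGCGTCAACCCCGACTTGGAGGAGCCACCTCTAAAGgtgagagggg
A second exon of SMARCA4, exon 30 (chr19:11150134-11150229, plus strand), is 96 bp long with a GC content of 50.0%.
SMARCA4 exon 30: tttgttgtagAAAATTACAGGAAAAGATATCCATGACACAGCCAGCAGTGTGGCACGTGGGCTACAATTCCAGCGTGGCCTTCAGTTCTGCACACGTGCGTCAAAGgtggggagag
The most skipped exon of BRG1-wt was exon 3 of YBX1 (chr1:43161870-43161959, plus strand), 90 bp long, and the most skipped coding exon of BRG1-mut was exon 3 of TCP1 (chr6:160208775-160208903, minus strand), 129 bp long. Both are poorer in G and C, at 44.4% and 44.2%.
YBX1 exon 3: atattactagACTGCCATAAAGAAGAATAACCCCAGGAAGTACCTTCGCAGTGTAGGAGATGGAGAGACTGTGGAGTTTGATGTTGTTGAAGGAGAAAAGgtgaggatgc
TCP1 exon 3: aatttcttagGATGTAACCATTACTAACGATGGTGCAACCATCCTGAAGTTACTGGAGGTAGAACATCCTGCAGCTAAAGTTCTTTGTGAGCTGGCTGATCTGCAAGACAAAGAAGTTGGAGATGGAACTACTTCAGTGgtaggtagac
With BRM-mut, the most included coding exon was exon 4 of ANKRD12 (chr18:9204474-9204542, plus strand), 69 bp long with a GC content of 40.6%.
ANKRD12 exon 4: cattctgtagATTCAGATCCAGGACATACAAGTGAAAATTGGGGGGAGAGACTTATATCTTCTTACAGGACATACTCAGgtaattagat
The exon with the largest opposite changes in the 2 BRM-wt replicates was exon 5 of KLHDC8B (chr3:49212495-49212596, plus strand, 102 bp).
KLHDC8B exon 5: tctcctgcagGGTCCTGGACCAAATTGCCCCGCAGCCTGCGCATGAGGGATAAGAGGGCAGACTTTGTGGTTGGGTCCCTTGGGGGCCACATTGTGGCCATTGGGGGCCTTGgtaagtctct
Exon 2 of GADD45A (chr1:68151708-68151809, plus strand, 102 bp) is shown because the study followed this gene.
GADD45A exon 2: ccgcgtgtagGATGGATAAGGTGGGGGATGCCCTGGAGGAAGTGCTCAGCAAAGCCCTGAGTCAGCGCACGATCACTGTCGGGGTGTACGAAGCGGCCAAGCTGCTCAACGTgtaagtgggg

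The 831 exons lay in 762 annotated genes, and 3 exons had no gene. In 700 genes there was 1 such exon, in 58 there were 2, and ARMC6, SH3YL1, TLK2 and ZNF133 had 3 each. Overlapping forms that share an end and differ at the other were counted as separate exons, as in SMUG1, EXO1, EMSY and PHC1. Their median length was 117 bp (quartiles 90 and 150 bp, range 63 to 198 bp), which corresponds to 39 residues and to a range of 21 to 66 residues. The most frequent lengths were 87, 96 and 108 bp, with 29 exons each. The median intron was 1909 bp upstream and 2083 bp downstream, against 1953 and 1957 bp over all listed exons.

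Coding exons made up 502 of the 831 (60.4%), against 39.1% of the frame-changing exons of the same lengths, 62.5% of the exons up to 60 bp, 31.3% of the exons over 200 bp and 46.0% of all listed exons. A further 51 held the start or the end of the coding sequence, 94 (11.3%) lay in the 5′ untranslated region, 79 (9.51%) only in transcripts annotated for nonsense-mediated decay, and 75 (9.03%) in non-coding transcripts. The remaining 30 did not match an annotated exon by both ends, of which 22 overlapped one. In the frame-changing exons of 61 to 200 bp, 19.7% were 5′ untranslated and 13.8% were only in decay transcripts. The share of coding exons was thus higher where the frame was kept. The transcript that joins the flanking exons without the middle exon was annotated for 797 of the 831 (95.9%).

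Of the 502 coding exons, 260 (51.8%) began between codons, 157 (31.3%) after the first base of a codon and 85 (16.9%) after the second, compared with 40.2%, 35.5% and 24.3% of the frame-changing coding exons. None of the 502 held a stop codon in its annotated frame, as its annotation as coding requires, whereas 312 (62.2%) held one in both other frames. Splice sites were regular, with AG before 830 of the 831 exons and GT after 807, GC after 22 and another pair of bases after 2. The median GC content was 50.0% (quartiles 42.9 and 57.9%), against 50.0% for the frame-changing exons, 46.7% for the exons up to 60 bp and 54.4% for the exons over 200 bp.

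At the edges of the length rule, exons with a length divisible by 3 had the following values. The 68 exons of 63 to 69 bp, just inside, had a median absolute change of 0.26 and 63.9% of their table entries were included. Just outside, the 59 exons of 54 to 60 bp had 0.20 and 45.1%. At the upper edge, the 32 exons of 192 to 198 bp had 0.325 and 56.1%, and the 27 exons of 201 to 207 bp had 0.21 and 46.3%.

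Expression of either form of BRG1 was accompanied by more inclusion than skipping of frame-preserving exons in both replicates, that of BRM-mut by neither, and BRM-wt differed between its replicates. With BRG1-wt, 119 of 192 exons in replicate 1 (62.0%) and 77 of 129 in replicate 2 (59.7%) had a higher PSI than control. All listed exons gave 55.5% and 56.2% in the same tables. With BRG1-mut, 110 of 182 (60.4%) and 95 of 156 (60.9%) were included, against 57.9% and 58.5% of all listed exons. The shares of frame-preserving exons were near those of all listed exons with BRG1-mut and a few points above them with BRG1-wt. Exons over 200 bp gave 54.6% and 59.4% with BRG1-wt and 62.5% and 60.3% with BRG1-mut. More inclusion than skipping was thus not particular to frame-preserving exons.

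With BRM-wt, replicate 1 gave 130 included of 205 (63.4%) and replicate 2 gave 101 of 231 (43.7%), against 60.2% and 43.0% of all listed exons. The 2 BRM-wt libraries thus lay on opposite sides of an even split, in the frame-preserving exons as in all exons. BRM-mut gave 69 of 139 (49.6%) and 64 of 125 (51.2%), against 49.1% and 49.3%. In these 4 tables the frame-preserving exons were close to the background.

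**Figure D1:**
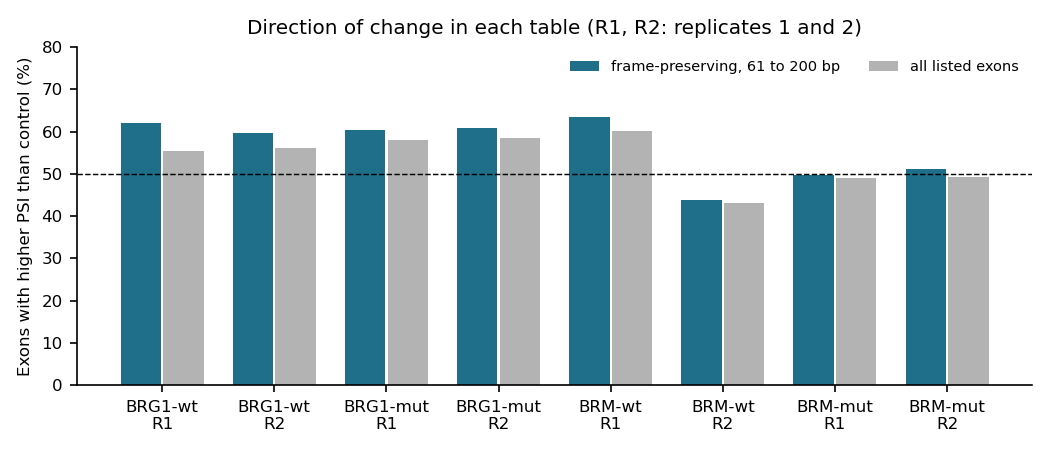
Percentage of exons with a higher PSI than control (y axis) in each of the 8 tables (x axis, R1 and R2 are the replicates), for frame-preserving exons of 61 to 200 bp (blue bars) and all listed exons (grey bars), with a dashed line at 50%. The BRG1 tables and BRM-wt replicate 1 lie between 59.7% and 63.4% for the frame-preserving exons, BRM-wt replicate 2 lies at 43.7% and the BRM-mut tables lie next to 50%.

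The direction of change was also counted by annotation, from the mean change of each exon over the replicates that listed it. Of the coding exons, 131 of 196 were included with BRG1-wt (66.8%, against 63.9% of all listed coding exons), 119 of 182 with BRG1-mut (65.4%, against 67.3%), 140 of 239 with BRM-wt (58.6%, against 54.1%) and 73 of 160 with BRM-mut (45.6%, against 45.9%). The BRM-wt share joins 2 replicates of unlike direction. The coding shares of the frame-preserving exons were close to those of all listed coding exons.

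The 5′ untranslated exons were included in 14 of 27 cases with BRG1-wt (51.9%), 15 of 34 with BRG1-mut (44.1%), 19 of 40 with BRM-wt (47.5%) and 17 of 32 with BRM-mut (53.1%). All listed 5′ untranslated exons gave 47.7%, 40.8%, 49.8% and 57.9%. For the exons of decay transcripts the counts were 20 of 32 (62.5%), 15 of 28 (53.6%), 12 of 29 (41.4%) and 14 of 19 (73.7%) in the same order. All listed exons of that class gave 52.2%, 44.9%, 51.1% and 50.9%. For those of non-coding transcripts the counts were 11 of 23 (47.8%), 19 of 30 (63.3%), 17 of 28 (60.7%) and 14 of 21 (66.7%), against 44.2%, 52.6%, 54.0% and 58.8%. These classes held few exons, and their differences from the coding exons were not tested.

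The PSI of the exons in the control libraries covered a wide range. The median in the control library was between 0.43 and 0.68 in the 8 tables, and the lowest lower quartile was 0.16 and the highest upper quartile 0.86. The median in the ATPase library was higher than that in the control in the 4 BRG1 tables and BRM-wt replicate 1, from 0.45 and 0.51 in BRG1-wt replicate 1 to 0.43 and 0.59 in BRM-wt replicate 1. It was lower in BRM-wt replicate 2 (0.55 and 0.46) and in both BRM-mut tables. The median absolute change was 0.22 and 0.23 with BRG1-wt, 0.28 and 0.24 with BRG1-mut, 0.26 and 0.26 with BRM-wt and 0.21 and 0.22 with BRM-mut. The medians of all listed exons ran from 0.22 to 0.29 in the same tables, and the largest change of a frame-preserving exon was 0.80.

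The 2 control libraries differed from each other by amounts of the same order. Both control values were known for 155 of the 831 exons, those listed in at least 1 table of each replicate, and the median absolute difference was 0.12 (quartiles 0.055 and 0.23). For 47 of the 155 (30.3%) it was at least 0.2, and the largest was 0.81. Among exons with both control values, the change was larger than the difference between the controls for 67.5% and 76.0% with BRG1-wt, 85.7% and 85.9% with BRG1-mut, 86.2% and 90.0% with BRM-wt and 80% and 75.8% with BRM-mut. All listed exons gave 62.6% and 69.2%, 85.8% and 79.4%, 87.9% and 85.1%, and 73.1% and 58.0% in the same order. The exons were listed for their change, so these shares do not measure how reliable the changes are.

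The size of the change differed by the level of the gene. In the tertile of table entries with the lowest base mean (up to 1042, 445 entries) the median absolute change was 0.36, in the middle tertile 0.22 and in the highest (from 3481, 446 entries) 0.16. The part of read depth in this was not tested, since the tables give no reads. The genes of the frame-preserving exons had a median base mean of 1973 in the BRG1-wt table, against 1522 for those of all listed exons. It was 2156 for those of the exons up to 60 bp, 1441 for those of the frame-changing exons and 1137 for those of the exons over 200 bp.

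Few exons were listed in both replicates of a group, and whether the replicates had the same direction depended on the group. BRG1-wt listed 306 of the 831 exons (36.8%, against 31.9% of all exons), BRG1-mut 305 (36.7%, against 39.2%), BRM-wt 379 (45.6%, against 49.2%) and BRM-mut 252 (30.3%, against 31.2%). Of these, 15, 33, 57 and 12 were in both replicates. With BRG1-mut, 31 of the 33 changed in the same direction (93.9%, against 92.3% of all exons in both replicates), with BRM-mut 9 of 12 (75%, against 57.1%) and with BRG1-wt 7 of 15 (46.7%, against 52.6%).

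With BRM-wt, 2 of 57 changed in the same direction (3.51%, against 5.3%), and 55 went in opposite directions. The PSI ranges of the 2 ATPase and the 2 control libraries did not overlap for 30 of the 33 exons with BRG1-mut (90.9%, against 89.5% of all exons in both replicates), for 8 of 12 with BRM-mut (66.7%, against 46.9%), for 7 of 15 with BRG1-wt (46.7%, against 42.1%) and for 2 of 57 with BRM-wt (3.51%, against 4.95%). Over the 8 tables together, 528 of the 831 exons were in 1 table, 178 in 2, 61 in 3, 36 in 4, 21 in 5, 6 in 6 and 1 in 7. Of the 303 in 2 or more, 95 (31.4%) had both directions, against 38% of all such exons, and without the BRM-wt tables the share was 24.3%, against 24.8%.

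**Figure D2:**
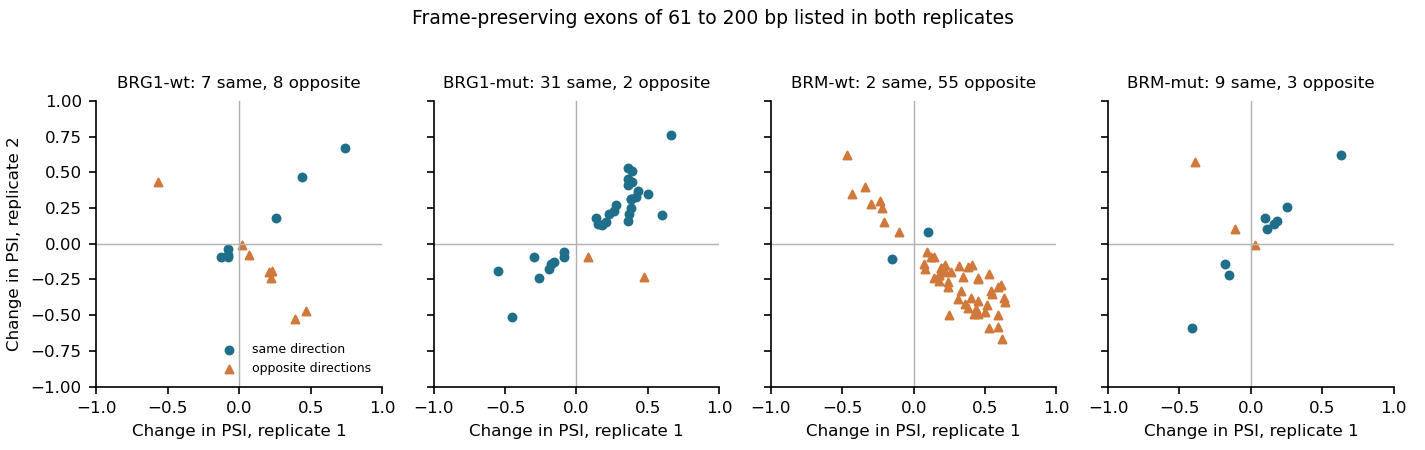
Change in PSI in replicate 1 (x axis) and replicate 2 (y axis) of each frame-preserving exon of 61 to 200 bp listed in both replicates of a group, 1 panel per group, circles for the same direction and triangles for opposite directions. BRG1-mut lies along the rising diagonal with 31 of 33 exons, and BRM-wt along the falling diagonal with 55 of 57.

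With BRG1-wt, 3 of the 7 exons with 1 direction were included and 4 skipped, and the included ones changed more. Over all listed exons, 17 of 30 with 1 direction were included. SMARCA4 exon 27 had a PSI of 0.11 and 0.03 in control replicates 1 and 2 and of 0.85 and 0.70 with BRG1-wt, a mean change of 0.705 ± 0.0495 (SD, n = 2). The transfected plasmid encodes BRG1, and its transcripts and those of the endogenous gene cannot be told apart in PSI. The base mean of SMARCA4 was 25802 with BRG1-wt and 29824 with BRG1-mut, against 3864 and 3076 in the BRM tables. The higher PSI of this exon in the BRG1 groups is therefore not read as a change in splicing. BNC2 exon 2, in a gene for a zinc finger protein, had 0.37 and 0.42 in control and 0.81 and 0.89 with BRG1-wt (0.455 ± 0.0212), and was in no table of another group. CDCA3 exon 2, in a gene that promotes entry into mitosis, holds the start or the end of the coding sequence and went from 0.62 and 0.77 to 0.88 and 0.95 (0.22 ± 0.0566). In these exons the BRG1-wt libraries did not overlap the controls.

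The 4 skipped exons of BRG1-wt were coding and had smaller changes, from -0.06 to -0.11. YBX1 exon 3, in the gene of the Y-box protein that binds DNA and RNA, went from 0.49 and 0.41 to 0.36 and 0.32 (mean change -0.11 ± 0.0283). YBX1 has 10 annotated pseudogenes, whose reads could not be separated here. CALD1 exon 6, of the actin-binding protein caldesmon, went from 0.35 and 0.34 to 0.27 and 0.25 (-0.085 ± 0.00707). The other two were CDCA7 exon 3 (0.17 and 0.15 to 0.09 and 0.07), of a cell cycle gene, and MRPL3 exon 2 (0.11 and 0.06 to 0.03 and 0.02), of a mitochondrial ribosomal protein. All 4 also had a lower PSI in a BRG1-mut table, which shares the controls, with changes of -0.07 to -0.11.

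Among the 8 exons with opposite directions in BRG1-wt, 3 were ranked first by the size of the change in the replicate where it was smaller. RASA4 exon 17, of a GTPase-activating protein of Ras, had 0.14 and 0.95 in the controls and 0.61 and 0.48 with BRG1-wt, and its gene had a base mean of 9.59, a low level beside the median of 1973. Exon 2 of PSMD12, a subunit of the proteasome, is annotated only in decay transcripts and went from 0.63 to 0.06 in replicate 1 and from 0.06 to 0.49 in replicate 2. An unannotated exon on chromosome 5 (chr5:69492705-69492797) went from 0.55 to 0.94 and from 0.96 to 0.43. In each of them the 2 control libraries were far apart.

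With BRG1-mut, 22 of the 31 exons with 1 direction were included and 9 skipped, a share near that of all listed exons (93 of 132 included). SMARCA4 exon 27 again led, with 0.77 and 0.79 against 0.11 and 0.03 in control (0.71 ± 0.0707), and the plasmid of this group also encodes BRG1. ZFP36L1 exon 2, of a protein that binds AU-rich elements and promotes decay of mRNA, had 0.14 and 0.32 in control and 0.53 and 0.83 with BRG1-mut (0.45 ± 0.0849). TIRAP exon 2, in the 5′ untranslated region of a Toll-like receptor adaptor, went from 0.11 and 0.26 to 0.47 and 0.79 (0.445 ± 0.12), and NRSN2 exon 4, of a vesicle membrane protein, from 0.16 and 0.39 to 0.66 and 0.74 (0.425 ± 0.106). The controls themselves differed in these exons, and the BRG1-mut values lay above both.

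The following 4 exons included with BRG1-mut were chosen after their values were seen. MEN1 exon 10, of menin, had 0.07 and 0.27 in control and 0.43 and 0.68 with BRG1-mut. RUNX3 exon 6, of a transcription factor, went from 0.17 and 0.38 to 0.53 and 0.83. SUN1 exon 6, of a protein of the inner nuclear membrane, went from 0.13 and 0.32 to 0.51 and 0.63. HNRNPUL1 exon 14, of a nuclear RNA-binding protein, went from 0.27 and 0.60 to 0.70 and 0.97. In all of them control replicate 2 was higher than control replicate 1, and so was BRG1-mut replicate 2 than replicate 1.

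Of the 9 skipped exons of BRG1-mut, 6 lay outside coding sequence or at its edge. ENDOV exon 3, in the 5′ untranslated region of an endonuclease for inosine-containing RNA, went from 0.53 and 0.685 to 0.08 and 0.175 (-0.48 ± 0.0424). TSSC4 exon 2, also 5′ untranslated, went from 0.68 and 0.24 to 0.13 and 0.05 (-0.37 ± 0.255), with more spread between replicates. TCP1 exon 3, of a subunit of the cytosolic chaperonin, is coding and had 0.55 and 0.46 in control and 0.29 and 0.22 with BRG1-mut (-0.25 ± 0.0141). UBA1 exon 2, of the ubiquitin-activating enzyme, went from 0.47 and 0.25 to 0.17 and 0.16 (-0.195 ± 0.148). The 2 exons with opposite directions were RASA4 exon 17 and RPLP0 exon 5 (0.23 and 0.31 in control, 0.31 and 0.22 with BRG1-mut), the latter in a ribosomal protein gene with 12 annotated pseudogenes.

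**Figure D3:**
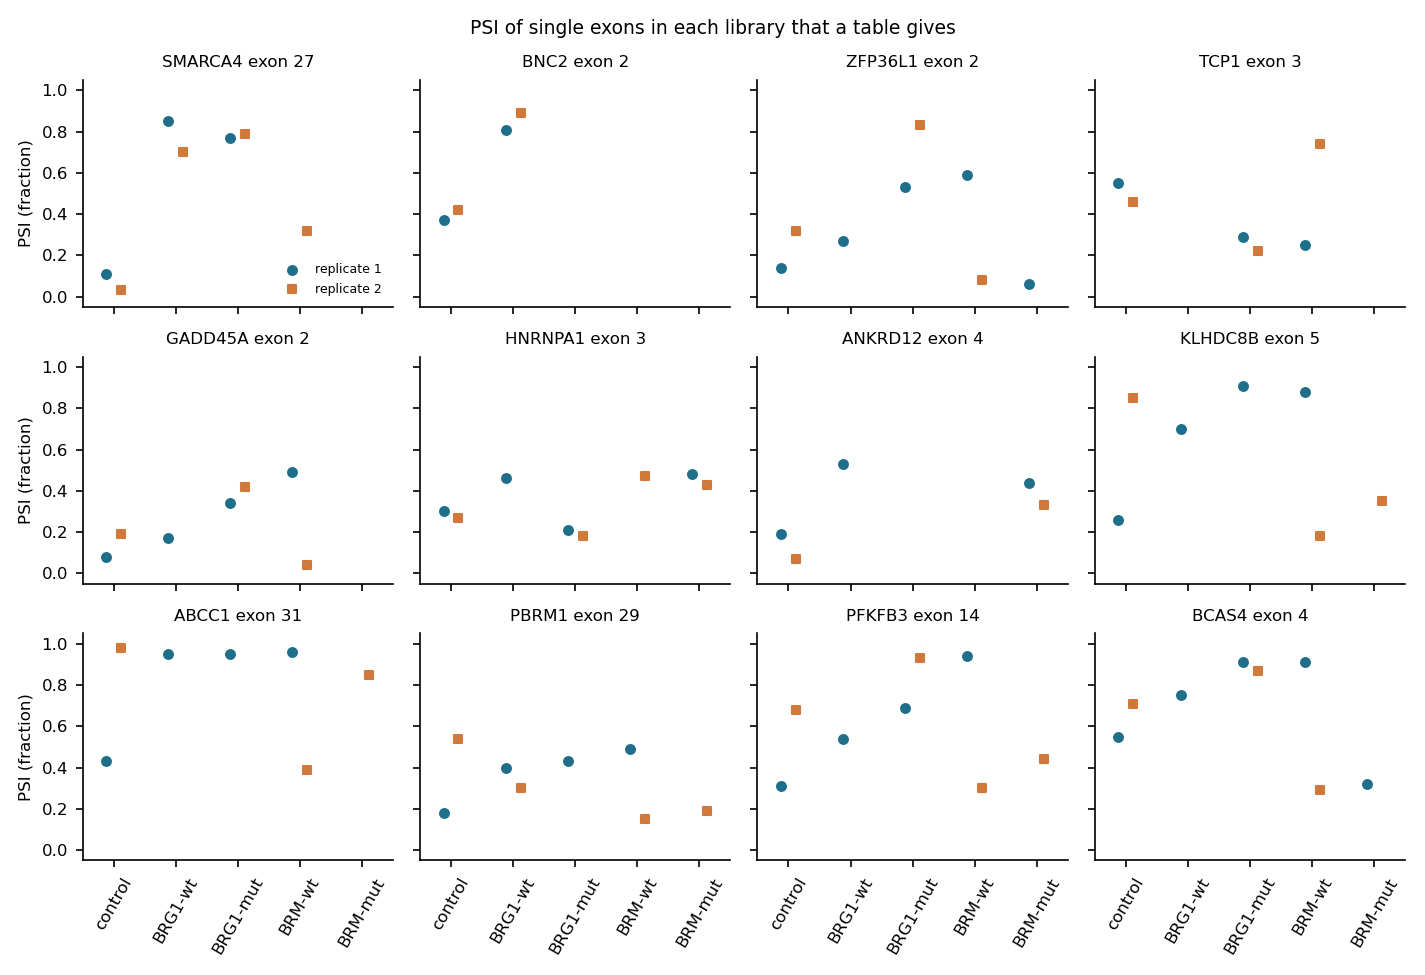
PSI (y axis) of 12 single exons in control and the 4 ATPase groups (x axis), circles for replicate 1 and squares for replicate 2, with no point where a table does not list the exon. SMARCA4 exon 27 is at 0.70 to 0.85 in the BRG1 libraries, and KLHDC8B, ABCC1 and PFKFB3 have low values in control replicate 1 and BRM-wt replicate 2 and high values in control replicate 2 and BRM-wt replicate 1.

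With BRM-wt, the exons listed in both replicates had PSI values near those of the control library with the other number. For the 57 exons, the median absolute difference was 0.08 between BRM-wt replicate 1 and control replicate 2 and 0.07 between BRM-wt replicate 2 and control replicate 1. Between the 2 BRM-wt libraries it was 0.42, between the 2 controls 0.20, and between each BRM-wt library and the control of its own number 0.333 and 0.27. All 283 exons listed in both replicates gave the same picture, with 0.08 and 0.07 across the numbers and 0.41 between the BRM-wt libraries. The cause was not tested.

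Of the 55 exons with opposite directions, 47 were higher in replicate 1 and lower in replicate 2, against 198 of 268 over all listed exons. The median PSI of the 47 in replicate 1 was 0.31 in control and 0.763 with BRM-wt, and in replicate 2 it was 0.63 in control and 0.26 with BRM-wt. The other 8 went from 0.72 to 0.358 in replicate 1 and from 0.52 to 0.84 in replicate 2. The median GC content was 62.2% in the 47 and 48.9% in the 8.

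**Figure D4:**
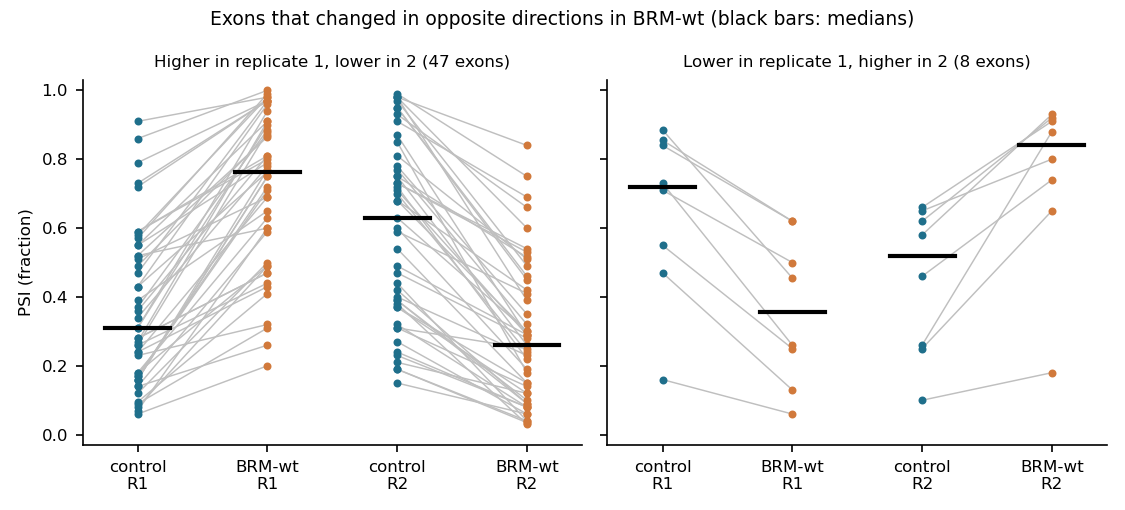
PSI (y axis) of the 55 frame-preserving exons with opposite directions in the BRM-wt replicates, in control and BRM-wt of replicates 1 and 2 (x axis), with grey lines between the libraries of a table and black bars at the medians. In the left panel (47 exons) the medians are 0.31, 0.763, 0.63 and 0.26 from left to right, so that BRM-wt of each replicate is near the control of the other.

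KLHDC8B exon 5, of a kelch protein, had 0.26 in control and 0.88 with BRM-wt in replicate 1, and 0.85 in control and 0.18 with BRM-wt in replicate 2. ABCC1 exon 31, of the multidrug resistance pump, had 0.43 and 0.96 in replicate 1 and 0.98 and 0.39 in replicate 2. CHTOP exon 5, of a factor in mRNA export, had 0.47 and 0.97 in replicate 1 and 0.97 and 0.49 in replicate 2. In all 3 exons, each BRM-wt library was within 0.08 of the control with the other number.

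DOP1A exon 2, 5′ untranslated in a gene of membrane traffic, had 0.16 in control and 0.75 with BRM-wt in replicate 1, and 0.87 and 0.29 in replicate 2. TSN exon 2, of the nucleic acid-binding protein translin and annotated only in decay transcripts, went the other way, with 0.73 and 0.26 in replicate 1 and 0.26 and 0.88 in replicate 2. Its GC content was 36.9%, the lowest of the 6 exons with the largest opposite changes.

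The 2 exons with 1 direction in BRM-wt changed little. HNRNPA1 exon 8, which lengthens the glycine-rich tail of this splicing repressor by 52 residues, had 0.29 and 0.25 in control and 0.39 and 0.33 with BRM-wt (0.09 ± 0.0141). EFCAB11 exon 5, annotated only in decay transcripts, had 0.17 and 0.12 in control and 0.02 and 0.01 with BRM-wt (-0.13 ± 0.0283). HNRNPA1 has 74 annotated pseudogenes, and reads from them could not be separated here.

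With BRM-mut, 6 of the 9 exons with 1 direction were included and 3 skipped, against 14 of 28 included over all listed exons. TIRAP exon 2 had 0.11 and 0.26 in control and 0.74 and 0.88 with BRM-mut (0.625 ± 0.00707), the largest mean change of the 9. ANKRD12 exon 4, of an ankyrin repeat protein of the nucleus, had 0.19 and 0.07 in control and 0.44 and 0.33 with BRM-mut (0.255 ± 0.00707). HNRNPA1 exon 3 had 0.30 and 0.27 in control and 0.48 and 0.43 with BRM-mut (0.17 ± 0.0141), while it had 0.21 and 0.18 with BRG1-mut (-0.09 ± 0). The same exon had 0.46 in BRG1-wt replicate 1 and 0.47 in BRM-wt replicate 2. SMN1 exon 6, of the survival motor neuron protein that assembles spliceosomal particles, went from 0.83 and 0.85 to 0.99 and 0.99 (0.15 ± 0.0141). SMN1 has a near-identical copy, SMN2, and the authors' mapping could divide reads between them.

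The skipped exons of BRM-mut were led by TBC1D5 exon 2, in the 5′ untranslated region of a GTPase-activating protein of Rab, which went from 0.49 and 0.86 to 0.08 and 0.27 (-0.50 ± 0.127). AP3M1 exon 2, 5′ untranslated in a gene of the adaptor complex AP-3, went from 0.19 and 0.23 to 0.01 and 0.09 (-0.16 ± 0.0283). In TBC1D5 and AP3M1 both BRM-mut libraries lay below both controls.

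The 3 exons with opposite directions in BRM-mut were ACSL1 exon 11, TNRC6A exon 7 and RACK1 exon 6. ACSL1, an acyl-CoA synthetase, had 0.46 and 0.35 in control and 0.07 and 0.92 with BRM-mut, the widest gap between BRM-mut replicates. TNRC6A, of the microRNA silencing complex, had 0.29 and 0.23 in control and 0.18 and 0.33. RACK1, a scaffold on the ribosome, was included almost fully in the libraries with a value, with 0.96 and 0.99 in control and 0.99 and 0.98.

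Most of the exons in the largest number of tables had unlike values in the 2 control libraries. PFKFB3 exon 14, of an enzyme that controls glycolysis, had 0.31 and 0.68 in control, 0.54 in BRG1-wt replicate 1, 0.69 and 0.93 with BRG1-mut, 0.94 and 0.30 with BRM-wt and 0.44 in BRM-mut replicate 2. ZFP36L1 exon 2 had 0.27 in BRG1-wt replicate 1, 0.59 and 0.08 with BRM-wt and 0.06 in BRM-mut replicate 1, beside the values above. BCAS4 exon 4 had 0.55 and 0.71 in control, 0.75 in BRG1-wt replicate 1, 0.91 and 0.87 with BRG1-mut, 0.91 and 0.29 with BRM-wt and 0.32 in BRM-mut replicate 1. In these exons the BRG1-mut libraries were above both controls, while the BRM-wt libraries lay on either side of them. In PFKFB3 some of these gaps were very small, with 0.69 in BRG1-mut replicate 1 beside 0.68 in control replicate 2. BRM-wt replicate 2 (0.30) was likewise next to control replicate 1 (0.31).

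PBRM1 exon 29 belongs to a subunit of the PBAF form of SWI/SNF. It had 0.18 and 0.54 in control, 0.40 and 0.30 with BRG1-wt, 0.43 in BRG1-mut replicate 1, 0.49 and 0.15 with BRM-wt and 0.19 in BRM-mut replicate 2. All replicate 1 values were above their control and all replicate 2 values below theirs, and apart from 0.15 they lay between the 2 controls. AP3M1 exon 2 was the only one of the 6 exons in the most tables that had a lower PSI in every table listing it, with 0.01 to 0.09 in the 6 ATPase libraries against 0.19 and 0.23 in control.

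SMARCA4 exon 27 was also listed in BRM-wt replicate 2, with 0.32 against 0.03 in control, but not in BRM-wt replicate 1. The source of the transcripts with this exon was not tested. SMARCA4 exon 30 was listed in replicate 2 alone, with 0.07 in control and 0 with BRG1-wt and with BRG1-mut. GADD45A exon 2, of a stress-induced regulator of growth arrest, had 0.08 and 0.19 in control, 0.17 in BRG1-wt replicate 1, 0.34 and 0.42 with BRG1-mut (0.245 ± 0.0212) and 0.49 and 0.04 with BRM-wt. The control values are unlike the paper's account, in which most GADD45A transcripts of C33A cells held exon 2. The reason for the difference was not tested. No frame-preserving exon of 61 to 200 bp of SMARCA2, MYL6 or MAZ was listed.

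Genes were sorted into 12 families by their symbols, and no family was uniform in direction. Regulators of small GTPases had 30 exons in 26 genes, of which 21 were included in every table that listed them, 7 skipped and 2 both. Without the BRM-wt tables these were 16, 6 and 1 of 23. Kinases and phosphatases had 37 exons (21 included, 15 skipped, 1 both), and without BRM-wt 12 and 13 of 25, which is close to even. Over all 831 exons, 405 were included in every table that listed them (48.7%) and 331 skipped (39.8%), against 43.6% and 42.1% of all listed exons. Without BRM-wt these were 347 (52.9%) and 263 (40.1%) of 656, against 49.3% and 43.2%. Most exons were in 1 table only (528 of the 831), so a single direction is often that of 1 table.

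Genes of DNA repair, replication and the cell cycle had 16 exons, 11 of them included, 3 skipped and 2 both, and without BRM-wt 12 and 3 of 15. The ubiquitin and proteasome genes leaned the other way, with 8 included, 15 skipped and 6 both of 29, but 9, 10 and 2 without BRM-wt. SWI/SNF and other chromatin genes had 27 exons, evenly divided between 12 included and 12 skipped. Splicing and RNA-binding factors held 2.53% of the frame-preserving exons and 3.64% of all listed exons, with 8 included, 7 skipped and 6 both.

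The largest family was that of zinc finger proteins and other transcription factors, with 57 exons in 49 genes (6.86%, against 5.49% of all listed exons), of which 27 were included, 25 skipped and 5 both. It counts ZFP36L1 and MYCBP2 by their symbols, which are no transcription factors, and other lists matched by symbol can likewise hold genes of another function. Its median absolute change was 0.35, and that of the 18 exons of solute carriers, channels and pumps was 0.36. The smallest were those of membrane trafficking (0.14, 25 exons), mitochondria and metabolism (0.15, 18 exons) and microtubules, cilia and centrosome (0.16, 23 exons). Adhesion and actin genes had 17 exons, with 8 included, 6 skipped and 3 both.

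Single exons of these families, each the one in the most tables, had the following values. CTNND1 exon 2, of a catenin that binds cadherins, had 0.095 and 0.19 in control and 0.375 and 0.46 with BRG1-mut (0.275 ± 0.00707). MAP4 exon 17, of a microtubule-associated protein, had 0.71 and 0.94 in control and 0.55 and 0.81 with BRG1-mut (-0.145 ± 0.0212). In the BRM-wt tables it went from 0.71 to 0.50 in replicate 1 and from 0.65 to 0.80 in replicate 2, where the control value differs from that in the BRG1-mut table because other events of the exon were listed. CDK16 exon 2, 5′ untranslated in a kinase gene, had 0.655 in control replicate 1 and 0.145 with BRG1-wt, 0.16 with BRG1-mut and 0.205 with BRM-wt in the same replicate. These 3 tables share the control library, so the likeness of their changes is not independent.

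The GC content of the included and the skipped exons differed, and the direction of the difference went with the table. With BRG1-mut, the median GC content was 61.2% for included and 45.9% for skipped exons in replicate 1, and 53.7% and 50.0% in replicate 2. With BRG1-wt it was 55.4% and 47.7%, and 49.7% and 45%. BRM-wt gave 60% and 46.3% in replicate 1 and 46.9% and 58.2% in replicate 2, where the skipped exons were the ones rich in G and C. With BRM-mut, included exons had the lower values in both replicates, at 48.7% against 53.3% and 48.0% against 50.0%.

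The same order held for all listed exons in each of the 8 tables, with medians of 59.9% and 49.2% in BRG1-mut replicate 1 and of 48.0% and 58.2% in BRM-wt replicate 2. The control libraries differed along the same property. Of the 52 exons in the highest tertile of GC content (59.8 to 78.9%) among those with both control values, 43 had a higher PSI in control replicate 2 and 5 in replicate 1, with a median difference of 0.135. In the lowest tertile (32.5 to 50.0%, 52 exons), 21 were higher in replicate 2 and 28 in replicate 1, with a median difference of -0.01. Over all 155 exons with both control values, 93 were higher in replicate 2 and 54 in replicate 1. Of all 615 listed exons with both values, 370 were higher in replicate 2 and 218 in replicate 1. Across the 155 exons, the correlation of GC content with the difference between the controls was r = 0.291 (rho = 0.354), with exons of the same 2 libraries as points. These exons were listed for their change from the same controls. The GC content by direction and that by control difference are therefore not independent observations. The part of library preparation in these differences was not tested.

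**Figure D5:**
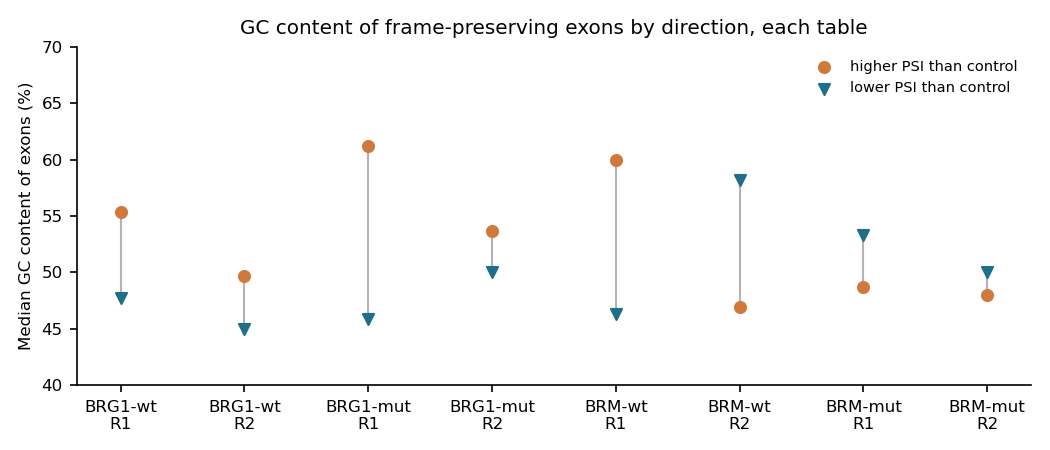
Median GC content (y axis, in %) of frame-preserving exons of 61 to 200 bp with a higher PSI than control (circles) and a lower PSI (triangles) in each table (x axis, R1 and R2 are the replicates). Included exons are richer in G and C in the BRG1 tables and BRM-wt replicate 1, by up to 15.3 points, and poorer in BRM-wt replicate 2 and the BRM-mut tables.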

How the data were processed

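RNA-seq was made from 10 libraries of C33A cells. The authors mapped the reads with TopHat2 2.0.4 to GRCh37, counted genes with HTSeq 0.6.1 (versions from the submitters' processing notes) and compared libraries in pairs by MISO, whose version is not given in the sources used here. Each pair was an ATPase library and the control of its replicate number. The deposited PSI values are fractions. The deposited Bayes factor is a score that weighs a difference in PSI against none, and all listed events exceed 10 (lowest 10.02). The base mean, a score of gene level, was computed by the authors with DESeq2 over 4 libraries. The fold changes and p-values in the expression tables are the authors' comparisons and were not used, nor was a second copy of the BRG1-wt table.

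The 5191 event entries (3102 distinct events) gave 2969 distinct middle exons. Events of 1 exon in a table were averaged, and 5 entries held events of mixed direction. The first PSI of an event was identical in every table of the same replicate, which marks it as the shared control. Exons were matched by coordinates to GENCODE release 44 on GRCh37, and 801 of the 831 matched at both ends. GC content and sequences came from the GRCh37 genome. The members, gene families and named exons were chosen with earlier results of these data known. Named were, in each group, up to 4 exons with the largest increase and 4 with the largest decrease in both replicates, up to 3 (BRM-wt 6) with opposite directions, the 6 exons in the most tables, exons of SMARCA4, SMARCA2, MYL6, GADD45A and MAZ, and 1 exon per gene family. No test was made. Some exons that met the rule for naming are not reported here. PECAM1, a marker of endothelial cells, was not analysed here.

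The replicate number is the study's own pairing, by difference from the control of that number. The correlation of the deviations of same-numbered libraries over the exons listed in both replicates was -0.61 for BRG1-wt, 0.57 for BRG1-mut, -0.82 for BRM-wt and 0.13 for BRM-mut. Alternatives were a Bayes factor above 20, an absolute change of at least 0.2, each replicate left out, short overlapping forms left out, the event with the highest Bayes factor, no replicate block, exons of opposite directions left out, and GC content with 100 bp on each side. The steps were tested on simulated data. Python 3.11.15, pandas 2.3.3, numpy 2.4.6, scipy 1.17.1 and matplotlib 3.10.9 were used.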

Additional observations from a re-analysis of the deposited data

Results flagged for a closer look

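In HNRNPA1 exon 3, both replicates of BRG1-mut went one way and both replicates of BRM-mut the other way. The exon changed by -0.09 and -0.09 with BRG1-mut and by 0.18 and 0.16 with BRM-mut, a difference of -0.26 between the mean changes. It was also higher in BRG1-wt replicate 1 (0.16) and in BRM-wt replicate 2 (0.20), so BRG1-mut was the only group with a lower PSI. The difference between the groups was not tested, and both groups share the same control libraries. The controls were close, at 0.30 and 0.27, and the 74 annotated pseudogenes of the gene limit the reading of its PSI.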

How the results depend on the processing

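The share of included exons, the median absolute change, the number of exons listed and the share with the same direction in both replicates were recomputed for each group. As first computed over both replicates, the share included was 61.6% with BRG1-wt, 59.7% with BRG1-mut, 55.0% with BRM-wt and 50.0% with BRM-mut, and the median changes were 0.23, 0.26, 0.26 and 0.22. With a Bayes factor above 20 the share included was 63.5% with BRG1-wt and 63.3% with BRG1-mut, and the median change with BRM-wt was 0.265. With a change of at least 0.2, 180, 192 and 142 exons were listed with BRG1-wt, BRG1-mut and BRM-mut, of which 58.7%, 60.9% and 45.1% were included, the median changes were 0.37, 0.37 and 0.36 (0.355 with BRM-wt), and 0 of 36 exons of BRM-wt (0%) had the same direction. The same minimum left 254 exons with BRM-wt, and 28.6% of 7 exons of BRG1-wt had the same direction, against 46.7% of 15. Without short forms, 60.1% were included with BRG1-mut and the median change with BRM-mut was 0.21.

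With no replicate block, that is from the mean of both controls, only exons with both control values could be used (87, 108, 113 and 71 of the 306, 305, 379 and 252 exons), so 2 choices changed together. The share included was 65.1%, 64.8% and 43.7% with BRG1-wt, BRG1-mut and BRM-mut, and the median changes were 0.145 with BRG1-wt, 0.222 with BRG1-mut, 0.199 with BRM-wt and 0.17 with BRM-mut. For an exon listed in both replicates the mean change is the same without the block by arithmetic. Without exons of opposite directions, the share included was 59.6%, 55.2% and 52.6% with BRG1-wt, BRG1-mut and BRM-mut. With crossed numbers, chosen after seeing the data, 8 of 13 exons of BRG1-wt and 6 of 52 of BRM-wt had the same direction. The GC difference between included and skipped exons with BRM-wt, 0.222 points, was -0.949 with 100 bp on each side.

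Leaving out either replicate left 129 to 192 exons with BRG1-wt, 156 to 182 with BRG1-mut, 205 to 231 with BRM-wt and 125 to 139 with BRM-mut. In the same order of groups, the shares included ran from 59.7% to 62.0%, 60.4% to 60.9%, 43.7% to 63.4% and 49.6% to 51.2%, and the median changes from 0.22 to 0.23, 0.24 to 0.28, 0.26 to 0.26 and 0.21 to 0.22. The GC differences ran from 4.72 to 7.64, 3.7 to 15.3, -11.3 to 13.8 and -4.54 to -1.97 points, so that for BRM-wt both the share and the GC difference changed side without replicate 1 (43.7% and -11.3). The cause was not tested. The agreement of replicates has no value with 1 replicate. PSI values without reads per event give no counting error.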

Other observations

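The remaining frame-preserving exons of 61 to 200 bp that changed in 1 direction in both BRG1-mut libraries, chosen after their values were seen, were mostly coding exons of enzymes and regulators. SLC39A13 exon 5, of a zinc transporter, went from PSI values of 0.10 and 0.39 in control to 0.49 and 0.82 with BRG1-mut (mean change 0.41 ± 0.0283, SD, n = 2). MBOAT7 exon 7, of an acyltransferase of lysophospholipids, went from 0.17 and 0.42 to 0.55 and 0.73 (0.345 ± 0.0495). PYCR1 exon 6, of an enzyme of proline synthesis, went from 0.12 and 0.24 to 0.49 and 0.45 (0.29 ± 0.113). SMUG1 exon 2, 5′ untranslated in a gene of a uracil-DNA glycosylase, went from 0.43 and 0.29 to 0.85 and 0.615 (0.372 ± 0.0672). In each of these exons both BRG1-mut libraries lay above both controls.

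Smaller changes in the same direction were found in UBN1 exon 17, of a histone chaperone complex (0.24 and 0.37 in control, 0.47 and 0.58 with BRG1-mut), and in LARP1 exon 3, of an RNA-binding protein (0.51 and 0.68, 0.72 and 0.83). NAB2 exon 6, of a corepressor of EGR proteins, had 0.28 and 0.31 in control and 0.46 and 0.44 with BRG1-mut, and BAG6 exon 25, of a chaperone, had 0.18 in both controls and 0.32 and 0.36 with BRG1-mut. PDCD6 exon 4, of a calcium-binding protein, had 0.28 and 0.40 in control and 0.43 and 0.54 with BRG1-mut. Of the skipped exons, PXN-AS1 exon 4, in a non-coding RNA, went from 0.90 and 0.77 to 0.71 and 0.59, and NDUFA11 exon 2, in a non-coding transcript of a respiratory complex I gene, from 0.18 and 0.13 to 0.09 and 0.07.

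With BRM-mut, 2 further coding exons went from high to almost full inclusion in both replicates. HPS5 exon 15, of a complex for the formation of lysosome-related organelles, went from 0.87 and 0.88 to 0.98 and 0.98 (0.105 ± 0.00707), and NEK3 exon 14, of a kinase, from 0.89 and 0.81 to 0.99 and 0.99 (0.14 ± 0.0566). HPS5 exon 15 was also at 0.98 in BRG1-wt replicate 1 and at 0.99 in BRM-wt replicate 2, so its change was not particular to BRM-mut. SMN1 exon 6 had the same final PSI of 0.99 in both BRM-mut libraries.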
